A study of Mus musculus with 34 samples.

Results

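The genes of the distal convoluted and connecting tubule, the nephron segments between the loop of Henle and the collecting duct, were followed through the growing mouse kidney and through cultured kidneys and kidney assembloids. They are Slc12a3, Wnk1, Wnk4, Klhl3, Trpm6, Pvalb, Trpv5, Calb1, Slc8a1 and Klk1. These 10 genes were chosen by name rather than by a cut on measured values, with earlier results of these data known. They came from the 23331 genes of the deposited expression table, and each matched 1 row. In the kidney, 10 of 10 were higher at postnatal day 9 than at birth, where 5.79% of all genes tested were, and Slc12a3 was already on its way up at embryonic stage E15.5. In culture the genes came apart. From culture day 3 to day 19, Slc12a3, Klk1 and Trpm6 rose and Calb1 fell, both in explants kept in medium v1 and in assembloids. Of all genes tested, 10.5% rose and 5.96% fell in these explants, and 10.9% and 6.45% in assembloids. The rises of Klk1 in both, and of Trpm6 in the explants, fell short of the threshold when a certain library was left out. In the latest v2 cultures Wnk1, Wnk4 and Calb1 overlapped newborn levels, while Slc12a3, Trpv5, Klk1 and Pvalb stood below them, with log2 differences between -4.57 and -2.33. Klhl3 was also lower, by smaller differences of -1.36 in v2 explants and -1.12 in assembloids, and Slc8a1 was lower in v2 explants.

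In the distal convoluted tubule, sodium chloride enters the cell through the thiazide-sensitive cotransporter NCC, made from Slc12a3. The kinases WNK1 and WNK4 switch it on through the kinase SPAK, and the KLHL3 and CUL3 ubiquitin ligase removes the WNK kinases. The same cells take up magnesium through the channel TRPM6 and hold the calcium-binding protein parvalbumin (Pvalb). The next cells along take up calcium through the channel TRPV5, carry it on calbindin-D28k (Calb1) and export it through the sodium-calcium exchanger NCX1 (Slc8a1), and connecting tubule cells secrete tissue kallikrein (Klk1).

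The study measured bulk RNA-seq in 34 mouse samples, 2 in each of 17 groups. Wild type kidneys came from embryos (E12.5 and, later, E15.5), from newborns (P0) and from mice of 9 and 45 days (P9, P45). Explants were E12.5 kidneys of genotype Hoxb7-venus, a transgene that marks the ureteric bud lineage with a fluorescent protein. They were kept in medium with 10% fetal bovine serum to day 7 (D7), in stage-based medium v0 to D17, in medium v1 to D3, D7, D13 or D19, or in medium v2 to D19. Assembloids were built from expanded kidney progenitors of the same genotype and kept in medium v2 to D3, D7, D13 or D19, with the D19 samples in 2 sets labelled r1 and r2. The sources used here do not give the composition of the media. Kidneys and cultures differed in genotype as well as in culture, which cannot be told apart. Cultures have no blood flow or urine output to the body. The labels do not say whether replicates were separate animals or cultures. The p-values therefore measure the spread between these samples, which may be technical in some groups.

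Values are signal normalized by the authors with TMM, a scaling that sets the bulk of genes level between samples. They are not divided by gene length, so levels of different genes are compared only per kilobase. The table holds no 0. Each library has a lowest value shared by many genes, between 0.035 and 0.119 for the libraries described here, and a gene there is called at the lowest value. Differences are log2 changes of the value plus a pseudocount of 0.962, which understates changes of low genes. Each is given with its standard error from 1 limma fit over all 34 libraries and the 19264 genes that reached the pseudocount in at least 2 libraries, and all 10 genes did. A gene is called changed, and said to rise or fall, when its Benjamini-Hochberg adjusted p was under 0.05 and its log2 change at least 1 in size. Where a group stood at the lowest value in every library, the fold is a lower bound against 3 times that value. In bulk tissue, fewer cells of a type and less RNA per cell cannot be told apart.

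Replicate libraries correlated at 0.981 to 0.996 over genes. The values imply depths between 7772347 and 28459391 counting steps, and the shallowest library by a wide margin was replicate 2 of the D19 v2 explants, with 15243962 in the next. Xist is made from the inactive X chromosome of female cells. It was 1435 to 2516 in the 10 assembloid libraries and 0.0429 and 340.3 in the 2 P0 libraries. At E12.5 it was 464.1 and 413.9, at P9 0.234 and 1.10, and at P45 0.531 and 0.0698. Sex was therefore not matched between groups, kidney stages included, and its part in the results was not tested. Within some groups the 2 replicates also differed, with 186.5 and 0.216 at E15.5 and 1250 and 0.0517 in D19 v1 explants. Those pairs were not repeats of the same material. The tissue label was borne out by the proximal tubule markers Lrp2, Slc34a1, Slc5a2 and Slc22a6, whose summed signal was 1679 to 1816 at P0. In the late cultures it was lower, between 76.4 and 220.6 in the D19 groups, with Slc5a2 at or under 3 times the lowest value in the D19 v2 explants and in the r2 assembloids. Skeletal muscle markers summed to 47.8 in replicate 1 of the E12.5 kidneys and 4.68 in replicate 2.

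**Figure D1:**
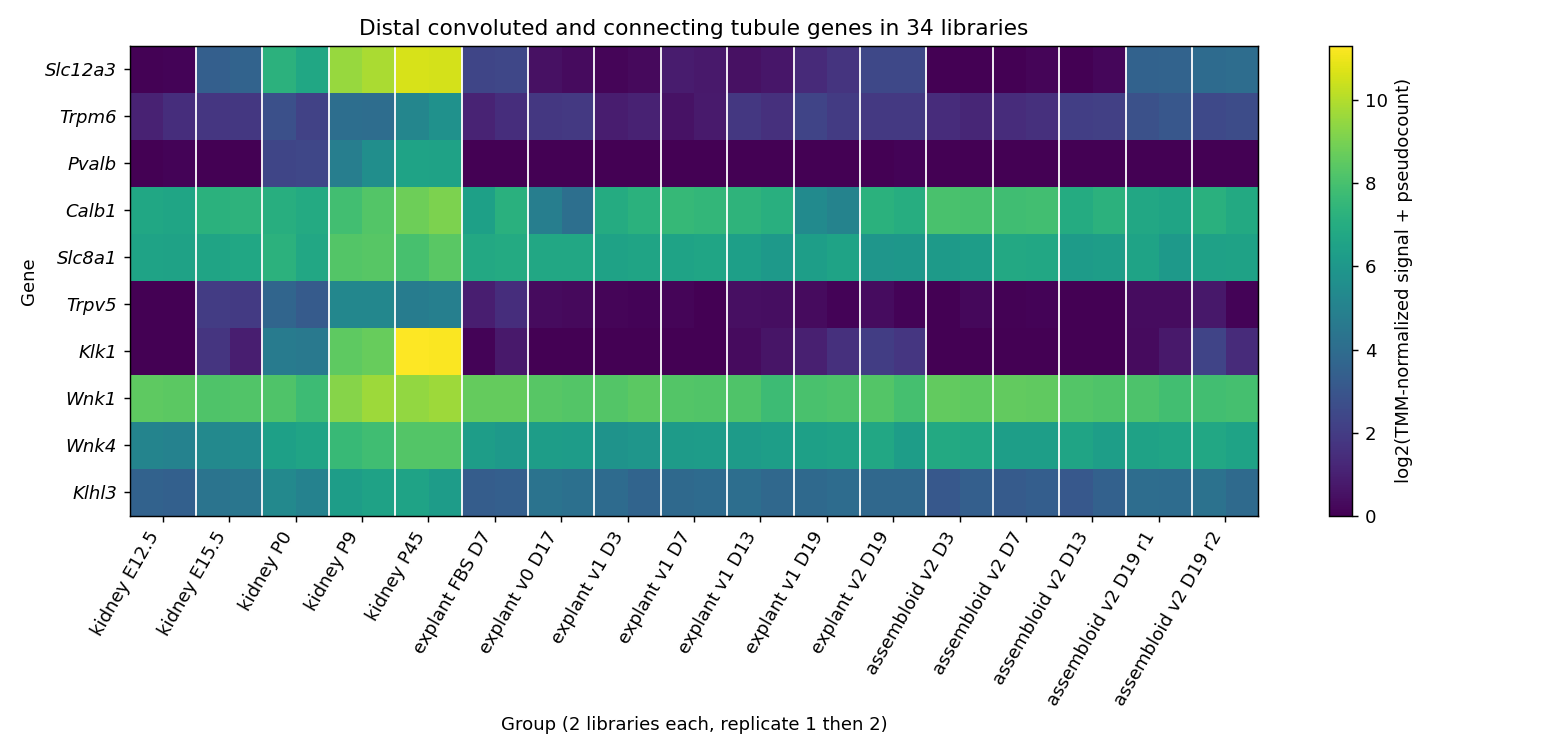
Heat map of the 10 genes (rows) in all 34 libraries (columns, 2 per group), coloured by log2 of the TMM-normalized signal plus the pseudocount. Calb1, Slc8a1, Wnk1, Wnk4 and Klhl3 are present in every column, while Slc12a3, Pvalb, Trpv5 and Klk1 are dark in most cultures and brighter in the P0, P9 and P45 kidneys.

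The promoters of 5 of the genes are shown as examples chosen after these values were seen, 3 from genes dark in most cultures (Slc12a3, Trpv5, Klk1) and 2 from genes present in every library (Wnk1, Wnk4). Each line runs 5′ to 3′ over 250 bases before and 50 after the gene start in RefSeq on GRCm38.p6. RefSeq promoters were found for 9 of the 10 genes. Capitals mark a TATAA box within 50 bases before the start, searched on the printed strand, or a half-site of the estrogen-related receptors, AAGGTCA on either strand.
Slc12a3, chr8:94328958-94329257, plus strand: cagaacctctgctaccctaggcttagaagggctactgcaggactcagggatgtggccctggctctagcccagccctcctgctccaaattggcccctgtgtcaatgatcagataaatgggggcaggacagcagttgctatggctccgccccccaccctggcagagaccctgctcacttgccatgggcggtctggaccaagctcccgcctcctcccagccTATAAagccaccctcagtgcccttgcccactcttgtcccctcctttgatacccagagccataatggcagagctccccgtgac
Trpv5, chr6:41680674-41680973, minus strand: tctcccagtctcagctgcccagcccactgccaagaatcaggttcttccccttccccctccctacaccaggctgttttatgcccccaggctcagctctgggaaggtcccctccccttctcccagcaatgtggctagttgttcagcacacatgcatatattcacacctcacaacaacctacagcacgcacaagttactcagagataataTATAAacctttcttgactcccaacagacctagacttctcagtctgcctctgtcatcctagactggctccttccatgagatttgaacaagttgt
Klk1, chr7:44225110-44225409, plus strand: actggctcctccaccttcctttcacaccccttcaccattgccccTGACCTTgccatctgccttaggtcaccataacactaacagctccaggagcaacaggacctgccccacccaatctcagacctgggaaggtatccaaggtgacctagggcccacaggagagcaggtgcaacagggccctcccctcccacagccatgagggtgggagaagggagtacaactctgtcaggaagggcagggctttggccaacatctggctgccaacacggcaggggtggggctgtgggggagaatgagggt
Wnk1, chr6:120038606-120038905, minus strand: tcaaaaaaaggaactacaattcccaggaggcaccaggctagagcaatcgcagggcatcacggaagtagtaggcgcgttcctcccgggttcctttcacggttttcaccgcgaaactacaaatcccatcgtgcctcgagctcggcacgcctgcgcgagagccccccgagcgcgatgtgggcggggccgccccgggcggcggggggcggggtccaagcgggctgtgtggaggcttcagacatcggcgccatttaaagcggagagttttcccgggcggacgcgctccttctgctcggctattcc
Wnk4, chr11:101260317-101260616, plus strand: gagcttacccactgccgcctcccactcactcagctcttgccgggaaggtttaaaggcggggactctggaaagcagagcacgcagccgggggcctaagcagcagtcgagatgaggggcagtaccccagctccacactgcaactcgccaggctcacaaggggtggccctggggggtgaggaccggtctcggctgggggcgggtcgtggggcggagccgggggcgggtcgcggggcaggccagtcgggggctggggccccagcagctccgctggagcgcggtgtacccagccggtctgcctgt
The TATAA box lay 32 bases before the start of Slc12a3 and 43 before that of Trpv5, and was searched for after these sequences had been seen. It was in the same window of 4.93% of all 32851 promoters in the table. The Slc12a3, Trpv5 and Klk1 windows held 4, 1 and 1 CG dinucleotides, against 32 and 21 for Wnk1 and Wnk4 and a median of 7 over all promoters. The other genes did not follow that split. Pvalb, at the lowest value in every culture, had 25 and 5 in its 2 windows, while Klhl3 had 8 and Slc8a1 and Trpm6 had 9 each, and none of these windows held the TATAA box. AAGGTCA was in the window of Klk1 and of 4.72% of all promoters. The half-site of HNF1 factors, GTTAAT on either strand, was in none of the 10 windows of these genes (Pvalb has 2) and in 7.1% of all. That of cAMP-response factors, TGACG on either strand, was in Klhl3 and in 20.8% of all.

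Per kilobase of the principal transcript, the adult kidney held most of Klk1, with values of 2651 and 2540, then Slc12a3 with 473.9 and 469.5, and Calb1 with 105.8 and 129.3. Pvalb, with 94.7 and 93.0, and Slc8a1, with 80.4 and 107.2, followed with the same mean of 93.8. Trpm6, with 5.49 and 7.89, was the lowest and Trpv5, with 8.10 and 8.65, the next. The 3 genes at the top and these 2 at the bottom kept their order when the length of all exons together was used, while Slc8a1 then had a mean of 15.9 and Pvalb 88.1.

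Growth of the kidney was compared stage by stage, which asks when distal tubule genes come on. At E15.5, 3 of 10 genes were higher than at E12.5, where 6.45% of all genes tested were called higher. At P0 against E15.5, 5 of 10 were higher and 4.31% of all genes. At P9 against P0, 10 of 10 were higher and 5.79% of all genes, and the median log2 change of the 10 was 1.52, against -0.02 over all genes. At P45 against P9, 3 of 10 were higher and 7.77% of all genes. Neighbouring comparisons share a stage and are not independent of each other.

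The NCC gene Slc12a3 (chromosome 8, 95055829 to 95092842 on the plus strand of mm39, the build of the table, as for the locations that follow) stood at 0.0919 and 0.111 at E12.5, 9.87 and 11.1 at E15.5, 153.3 and 106.9 at P0, 757.9 and 929.8 at P9, and 1563 and 1549 at P45. Every stage lay above the one before it with no overlap. The log2 change was 3.43 ± 0.18 to E15.5 (adjusted p = 1.62e-14), 3.50 ± 0.18 to P0 (adjusted p = 1.23e-13) and 2.7 ± 0.18 to P9 (adjusted p = 4.86e-12). From P9 to P45 the change was 0.89 ± 0.18, with a 95% interval from 0.52 to 1.26, and was not called because it was under the threshold of 1.

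Wnk4, a kinase of the NCC pathway (chromosome 11, 101151393 to 101168235 on the plus strand), was 33.4 and 31.7 at E12.5, 38.6 and 42.2 at E15.5, 83.6 and 95.8 at P0, 196.1 and 226.8 at P9, and 309.5 and 310.7 at P45. The groups did not overlap, and the rise was called from E15.5 to P0 (1.13 ± 0.12, adjusted p = 8.77e-08) and from P0 to P9 (1.23 ± 0.12, adjusted p = 7.04e-09). Wnk1 (chromosome 6, 119900930 to 120015633 on the minus strand) took another course. It was 359.0 and 345.3 at E12.5, 289.0 and 302.7 at E15.5, and 293.9 and 215.8 at P0, which lay partly inside the E15.5 values. At P9 it was 607.5 and 792.0, above every embryonic and newborn library, a rise of 1.46 ± 0.14 (adjusted p = 2.95e-09), and at P45 it was 709.7 and 802.8, overlapping P9. Wnk1 also makes a kidney-specific short form from an internal promoter in the distal convoluted tubule, and values per gene do not separate it from the long form.

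Klhl3, the ligase subunit that binds WNK kinases (chromosome 13, 58148042 to 58261406 on the minus strand), was 10.8 and 10.0 at E12.5, 19.4 and 20.7 at E15.5, 39.5 and 30.8 at P0, 76.8 and 90.6 at P9, and 93.3 and 74.3 at P45. It stepped up without overlap until P9 and overlapped after that. Of these steps the one from P0 to P9 was called (1.23 ± 0.17, adjusted p = 9.55e-07), while those to E15.5 (0.89 ± 0.17) and to P0 (0.77 ± 0.17) passed the p threshold and fell short of the fold.

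Trpm6, the magnesium channel (chromosome 19, 18727347 to 18869875 on the plus strand), was 1.15 and 1.78 at E12.5, 2.52 and 2.59 at E15.5, 5.75 and 3.72 at P0, 16.2 and 15.6 at P9, and 35.7 and 51.4 at P45. No stage overlapped the next. The rises from P0 to P9 (1.59 ± 0.22, adjusted p = 1.47e-06) and from P9 to P45 (1.38 ± 0.22, adjusted p = 8.84e-06) were called. Pvalb (chromosome 15, 78075314 to 78090600 on the minus strand) was the last of the 10 genes to leave the lowest value. It was at or near the lowest value in the 4 embryonic libraries, between 0.0431 and 0.111, then 4.25 and 4.26 at P0, 27.5 and 47.2 at P9, and 92.5 and 90.8 at P45. The rise at P0 was 2.37 ± 0.19 and at least 31.3-fold (adjusted p = 3.75e-10), and it was followed by 2.83 ± 0.19 at P9 (adjusted p = 3.5e-12) and 1.32 ± 0.19 at P45 (adjusted p = 1.54e-06). Parvalbumin is also a muscle protein. The 5 skeletal muscle markers summed to 0.908 to 2.90 in the P0, P9 and P45 libraries, with Myog at or under 3 times the lowest value in each of these groups.

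Trpv5, the calcium entry channel (chromosome 6, 41629107 to 41657703 on the minus strand), was at the lowest value in both E12.5 libraries and 3.04 and 2.80 at E15.5. It was 12.1 and 8.58 at P0, 36.2 and 36.4 at P9, and 26.3 and 28.1 at P45. It rose at E15.5 (1.94 ± 0.21, at least 19.2-fold, adjusted p = 2.77e-08), at P0 (1.52 ± 0.21, adjusted p = 4.15e-06) and at P9 (1.74 ± 0.21, adjusted p = 1.89e-07). Trpv5 had its highest values at P9, and the change to P45 was -0.41 ± 0.21 with an interval from -0.84 to 0.03.

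Calb1, the calcium carrier (chromosome 4, 15881264 to 15908064 on the plus strand), is also known from the branching ureteric bud. It was 103.9 and 98.0 at E12.5, 149.6 and 155.2 at E15.5, 135.6 and 117.8 at P0, 236.9 and 306.8 at P9, and 446.6 and 546.1 at P45. P0 lay below E15.5 and above E12.5, and only the step from P0 to P9 was called (1.09 ± 0.22, adjusted p = 0.000382). Without P0 replicate 2 the change was 0.99 and without P9 replicate 2 it was 0.90, and neither was called. The 6 ureteric bud markers summed to 667.5 to 750.8 at P0 and 1278 to 1458 at P9, and their part in the Calb1 values was not tested. Slc8a1, the calcium exporter (chromosome 17, 81680534 to 82045806 on the minus strand), was 92.0 and 90.3 at E12.5, 97.5 and 105.2 at E15.5, 152.7 and 108.3 at P0, 308.0 and 332.4 at P9, and 255.8 and 341.0 at P45. It moved in 1 step, from P0 to P9 (1.31 ± 0.14, adjusted p = 2.22e-08), and P45 enclosed P9. Slc8a1 is also a heart gene. The 4 heart markers that the table lists of 5 summed to 1.20 and 2.19 at P0 and to 12.6 and 11.5 at P9, with Myh6 at or under 3 times the lowest value in both groups, and their part in the Slc8a1 rise was not tested.

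Klk1, the secreted protease (chromosome 7, 43874784 to 43879042 on the plus strand), had the widest range. It was at the lowest value at E12.5, 2.42 and 0.992 at E15.5, 25.1 and 22.7 at P0, 366.4 and 408.0 at P9, and 2529 and 2423 at P45. Every step was called, and each stage lay clear of the last. The log2 changes were 1.34 ± 0.28 to E15.5 (at least 11.2-fold, adjusted p = 0.000451), 3.27 ± 0.28 to P0, 3.97 ± 0.28 to P9 and 2.68 ± 0.28 to P45 (adjusted p = 8.01e-09). Without E15.5 replicate 1 the first of them was 0.95 and not called. Klk1 belongs to a family of near-identical kallikrein genes, between which reads can be split. The table lists 7 Klk1b paralogs, of which 3 passed the filter and 1, Klk1b5, was called, from a mean of 0.217 at P0 to 2.57 at P9. In v1 explants the paralog Klk1b22 had means of 0.590 at D3, 2.81 at D13 and 1.68 at D19. Klk1 itself had means there of 0.0495, 0.440 and 1.53, and the splitting of reads between them was not tested.

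**Figure D2:**
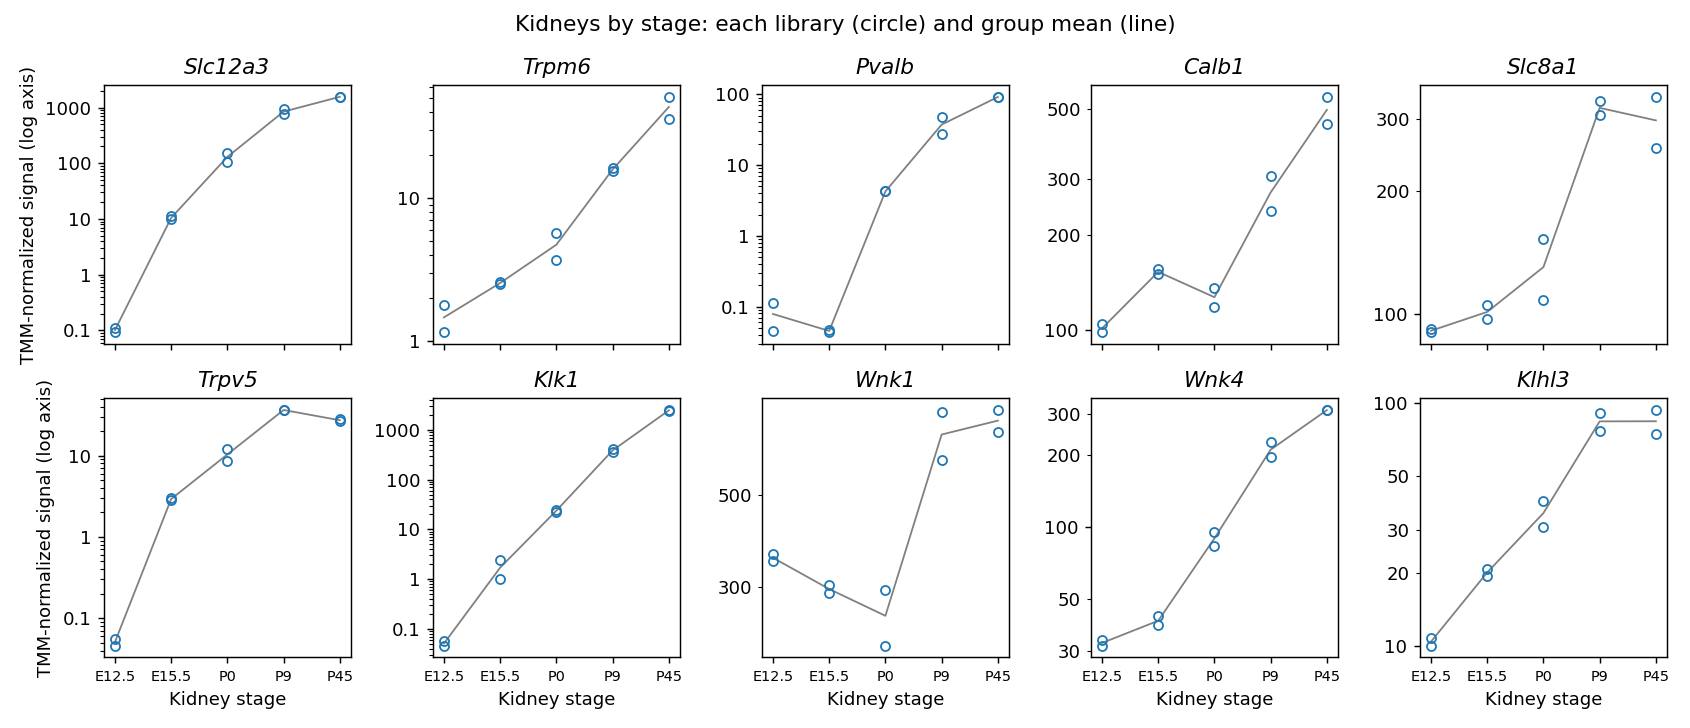
TMM-normalized signal (log axis, with its own range for each gene) of the 10 genes against kidney stage, with each library as a circle and a line through the means of 2. Slc12a3 climbs from about 0.102 to 1556, Trpv5 has its highest values at P9, and Wnk1 is lowest at P0.

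Some of these kidney results depended on scaling. With every library set to the same total in place of TMM, the median change of all genes was -0.19 from P0 to P9 and -0.33 from P9 to P45. The genes called higher and lower then split 744 to 1719 at P9, against 1115 to 1144, and 743 to 2472 at P45, against 1496 to 1317. Calb1 at P9 was then 0.87, or 1.06 above that median, and was no longer called. Trpm6 and Pvalb at P45 were 0.96 and 0.90, or 1.29 and 1.23 above it, and were no longer called either, which left Klk1 at 2.25. Without P9 replicate 1 the Pvalb change at P45 was 0.94, and without P9 replicate 2 the count at P45 was 5 in place of 3.

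The partner genes of the same pathways moved with the kidney in part. Of 13 salt transport partners, 3 rose and 1 fell at E15.5, 5 rose at P0, 4 rose at P9, and 3 rose and 1 fell at P45. Of all genes tested, 6.45%, 4.31%, 5.79% and 7.77% rose at these stages in turn, and 3.17% fell at E15.5 and 6.84% at P45. Bsnd, the gene of the membrane protein barttin, rose by 3.44 at E15.5 and by 1.77 at P0. The potassium channel gene Kcnj10 rose by 2.22 at P9, from a mean of 42.6 to 200.2. The kinase gene Wnk3 fell by 1.20 from P9 to P45. Of 7 calcium partners, 4 rose at E15.5, 4 at P0 and 3 at P9, and 1 fell at P45. Among them the FGF23 co-receptor Kl rose by 4.48 and calbindin-D9k (S100g) by 3.55 at E15.5, and the second calcium channel of the family, Trpv6, fell by 1.65 at P45.

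Of 8 magnesium partners, 3 rose at E15.5, 2 at P0, 1 at P9 and 3 at P45. The Na,K-ATPase subunit Fxyd2 rose by 5.59 at E15.5, and Egf, the growth factor that stimulates TRPM6, rose by 3.85 at P9 and by 5.09 at P45, to a mean of 2533. Several partners are shared with the thick ascending limb, whose 5 markers (Slc12a1, Umod, Cldn10, Cldn16, Cldn19) summed to 1.28 to 1.88 at E12.5 and 8078 to 8684 at P45, and the share of each segment was not tested. Of 7 transcription factors of the distal nephron, 5 rose and 1 fell at E15.5, 1 rose at P0, 2 rose at P9 and 2 fell at P45, to be read against the same shares of all genes. Irx1 rose by 5.38, Sall3 by 3.74 and Emx1 by 3.18 at E15.5, and Sall3 fell by 1.34 at P45.

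**Figure D3:**
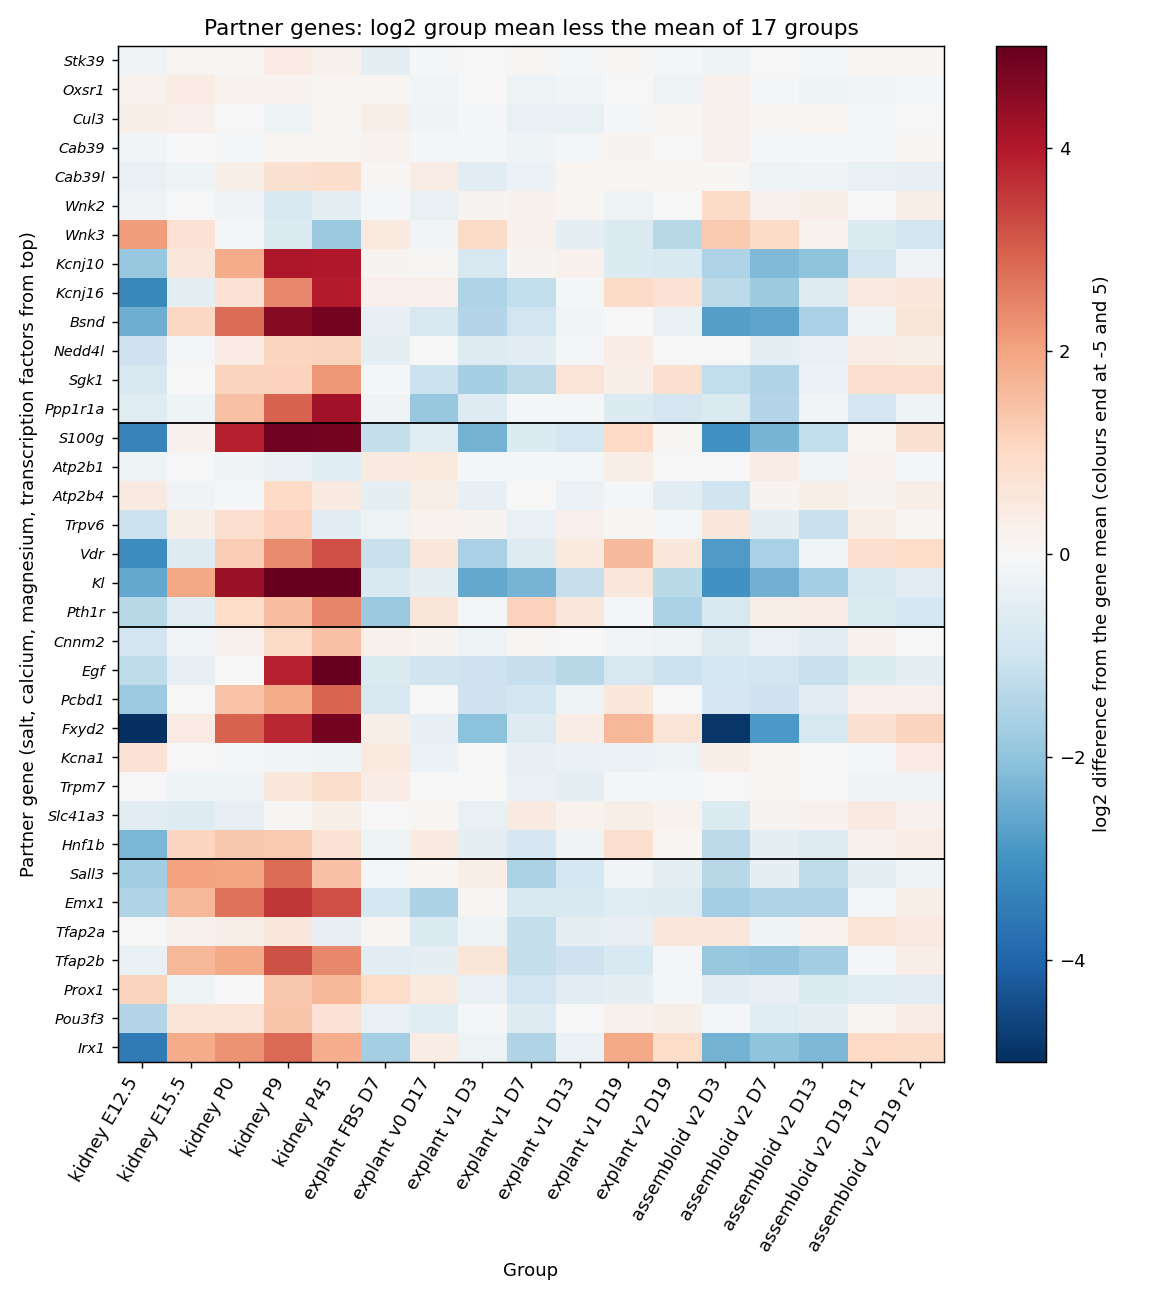
Group means of 35 partner genes on the log2 scale, each less its own mean over the 17 groups, with lines between the salt, calcium and magnesium lists and the transcription factors. Bsnd, Kcnj10, S100g, Kl, Egf and Fxyd2 are reddest in the P9 and P45 kidneys, and paler or bluer in the D19 cultures than at P0.

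In culture, time courses were followed in v1 explants and in assembloids. From D3 to D19 in v1 explants, 3 of 10 genes rose and 1 fell, against 10.5% and 5.96% of all genes. Over the same days in assembloids, 3 rose and 1 fell, against 10.9% and 6.45% of all genes. In both cases the risers were Slc12a3, Klk1 and Trpm6 and the gene that fell was Calb1.

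Slc12a3 in v1 explants was 0.150 and 0.246 at D3, 0.851 and 0.740 at D7, 0.476 and 0.636 at D13, and 1.55 and 2.33 at D19. The D19 libraries were the highest of the course and did not overlap D3 or D13, and the change from D3 was 1.31 ± 0.18 (adjusted p = 9.27e-07). In assembloids it was at the lowest value in both D3 libraries, 0.0441 and 0.150 at D7, and 0.0535 and 0.177 at D13. At D19 it was 10.9 and 11.1 in the r1 set and 14.3 and 15.3 in the r2 set, so that all 4 late libraries were far above the 6 earlier ones. The rise from D3 was 3.76 ± 0.16 and at least 82.8-fold (adjusted p = 6.27e-17), and that from D13 was 3.67 ± 0.16 (adjusted p = 2.26e-15). The D3 to D19 change was larger in assembloids than in v1 explants by 2.45 ± 0.24 (adjusted p = 2.6e-08), the only one of the 10 genes called for that difference, against 5.48% of all genes called higher. Medium differs between these courses as well as the starting material, and the 2 cannot be told apart here.

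The WNK4 and KLHL3 genes also differed between the courses without reaching the fold. Wnk4 was 55.7 and 60.7 at D3 and 85.5 and 90.9 at D19 in v1 explants, and 117.3 and 108.2 at D3 and 89.7 to 107.8 at D19 in assembloids. D19 lay above D3 in the first case and below it in the second, with a difference in change of -0.82 ± 0.16 (adjusted p = 0.000461). Klhl3 in assembloids was 7.59 and 9.65 at D3 and 13.9 to 17.9 at D19, and in v1 explants 14.7 and 11.4 at D3 and 13.6 and 14.9 at D19, a difference of 0.66 ± 0.22 (adjusted p = 0.03). Wnk1 in assembloids was 379.7 and 357.4 at D3 and 235.5 to 278.4 at D19, with no overlap, a change of -0.56 ± 0.12 that was under the fold threshold.

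Trpm6 was 0.898 and 1.13 at D3 in v1 explants and 3.98 and 2.95 at D19. The groups did not overlap, and the rise was 1.16 ± 0.22 (adjusted p = 8.24e-05). In assembloids it was 1.75 and 1.35 at D3 and between 4.70 and 7.52 at D19, a rise of 1.43 ± 0.19 (adjusted p = 2.85e-07). The difference between these rises was 0.28, with an interval from -0.32 to 0.87. In v1 explants the Trpm6 change was 0.99 without D19 replicate 1 and under 1 after quantile normalization, and not called.

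Klk1 was at the lowest value at D3 and D7 in both courses and also at D13 in assembloids. In v1 explants it was 0.286 and 0.593 at D13 and 1.05 and 2.02 at D19, a rise from D3 of 1.27 ± 0.28 and at least 10.3-fold (adjusted p = 0.000421). In D19 assembloids it was 0.288 and 0.752 in the r1 set and 4.03 and 1.63 in the r2 set. The sets did not overlap, and r2 was higher by 1.30 ± 0.28 (adjusted p = 0.0305), the 1 gene of 10 called between the sets, against 0.0623% of all genes called higher. That call was lost without r1 replicate 1 (1.07), r1 replicate 2 (1.52) or r2 replicate 1 (0.82). The rise from D3 over both sets was 1.18 ± 0.24 and at least 10.7-fold (adjusted p = 0.000148). From D13, 2 of 10 genes rose in assembloids (3.97% of all genes), Slc12a3 and Klk1, the second by 1.17 ± 0.24. Without r2 replicate 1 the Klk1 rises were 0.94 and 0.93 and not called, and the count from D13 was 1. In v1 explants the rise was 0.99 without D19 replicate 2.

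Calb1 ran the other way. In v1 explants it was 124.2 and 147.2 at D3, 189.0 and 176.9 at D7, 162.8 and 137.1 at D13, and 41.8 and 31.8 at D19. The low values were those of D19, and from D13 Calb1 fell by 2.01 ± 0.22 (adjusted p = 1.07e-06) and was the 1 gene of 10 called, against 2.60% of all genes called lower. The counts there were 2 without D13 replicate 2 and 3 without D19 replicate 1. In assembloids Calb1 was 267.4 and 256.6 at D3, 225.9 and 231.3 at D7, 123.3 and 151.3 at D13, and 95.9 to 142.1 at D19. It fell by 1.18 ± 0.19 from D3 to D19 (adjusted p = 1.53e-05), and D13 and D19 overlapped. Ureteric bud markers summed to 473.6 to 487.9 at D13 and 350.7 to 357.3 at D19 in v1 explants, and to 616.5 to 693.6 at D3 and 392.9 to 468.8 at D19 in assembloids, and their part in the Calb1 values was not tested.

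The other 3 genes gave little movement in either course. Pvalb was at the lowest value in all cultured libraries, between 0.035 and 0.119. Trpv5 was between 0.050 and 0.671 in both courses, with D19 assembloids of 0.112 to 0.671 overlapping the D3 libraries of 0.050 and 0.216. Slc8a1 was between 68.1 and 112.2 in both courses, and D3 and D19 overlapped in each.

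**Figure D4:**
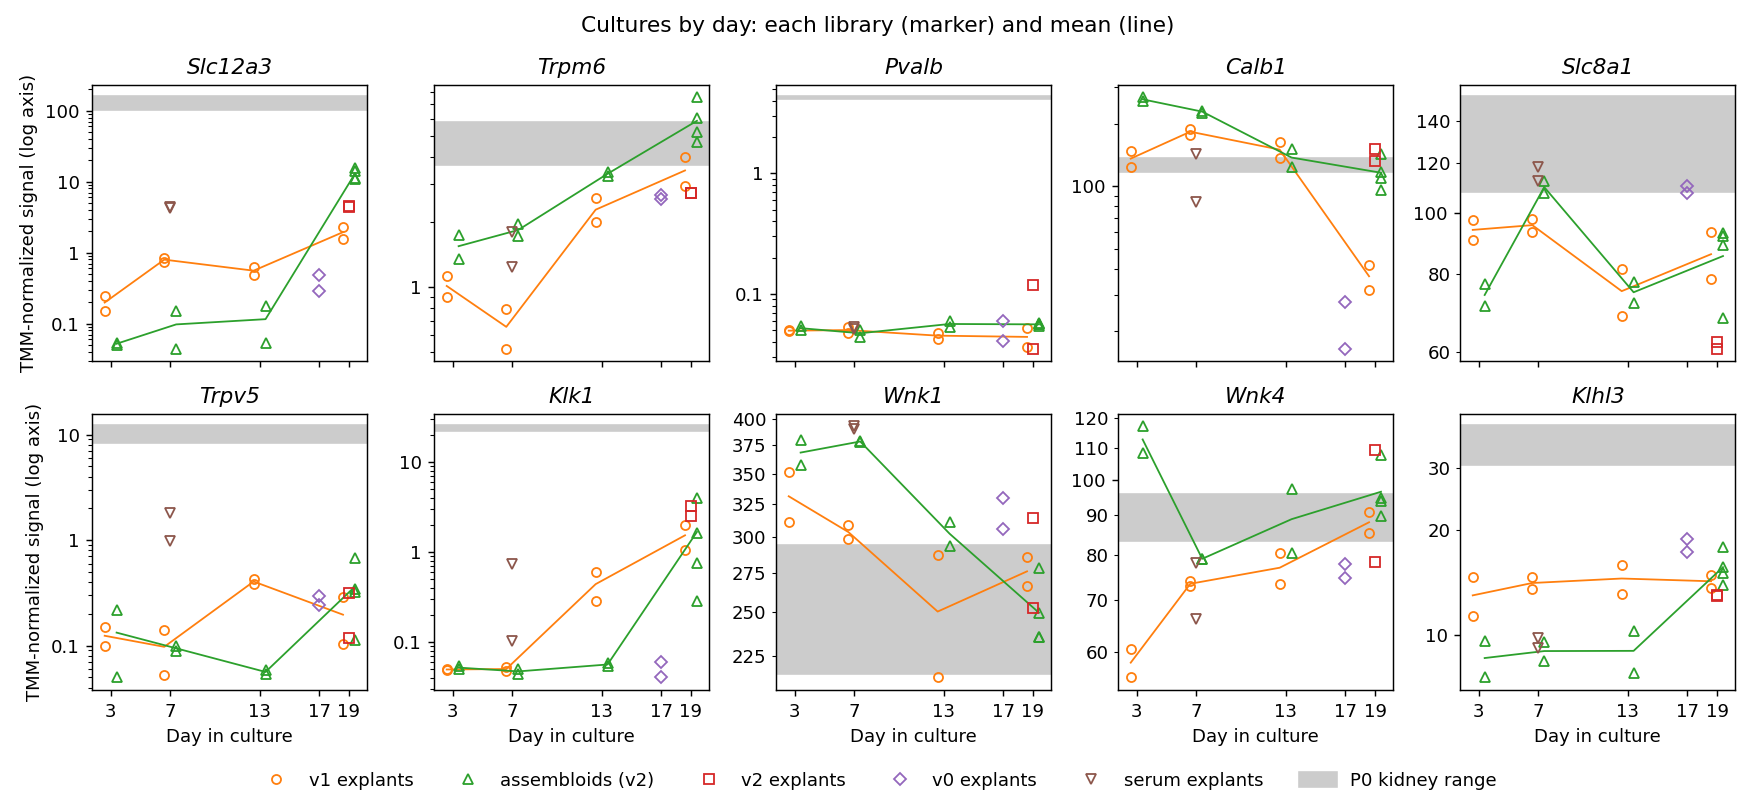
TMM-normalized signal (log axis, with its own range for each gene) of the 10 genes against day in culture, with each library as a marker, lines through means and the range of the P0 kidneys as a grey band. Slc12a3 in assembloids leaves its lowest values after D13, Calb1 in v1 explants drops below the band at D19, and Pvalb, Trpv5 and Klk1 stay under their bands.

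Some partner genes rose over both courses. From D3 to D19, 4 of 13 salt partners rose and 1 fell in v1 explants, and likewise 4 and 1 in assembloids, where 10.5% and 5.96% of all genes rose and fell in the first and 10.9% and 6.45% in the second. Bsnd rose by 1.46 and 2.95. For Bsnd the difference between the courses was called (1.49 ± 0.30, adjusted p = 0.000534). Of 7 calcium partners, 3 rose in v1 explants and 4 in assembloids, led by S100g (3.39 and 3.44) and by Vdr, the vitamin D receptor (3.33 and 3.70). Of 8 magnesium partners, 3 and 4 rose, led by Fxyd2 (3.87 and 5.85), whose difference was also called (1.98 ± 0.48, adjusted p = 0.00543).

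Of the 7 transcription factors, 3 were called higher in the difference between the courses, against 5.48% of all genes. Tfap2b, a factor of distal tubule cells, fell from a mean of 30.7 to 11.5 in v1 explants and rose from 4.65 to 22.3 in assembloids. The changes were -1.35 and 2.05 and their difference 3.41 ± 0.30 (adjusted p = 4.36e-09). Emx1 rose by 1.81 and Sall3 by 1.03 in assembloids, with differences of 2.50 ± 0.38 and 1.51 ± 0.30. Irx1 rose in both, by 2.33 and 3.64. The thick ascending limb markers moved alongside, from 6.34 and 22.6 at D3 to 88.1 and 109.5 at D19 in v1 explants and from 1.499 and 2.21 to between 89.7 and 150.1 in assembloids, and their part in these values was not tested.

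Media were compared at matched or near days. At D7, v1 explants had 2 of 10 genes lower than serum explants, against 5.62% of all genes lower. Slc12a3 was 4.23 and 4.41 in serum and 0.851 and 0.740 in v1, lower by 1.59 ± 0.18 on the log2 scale (adjusted p = 8.22e-08), with no overlap. Trpv5 was 0.980 and 1.81 in serum, the highest of any culture, and 0.142 and 0.0528 in v1, a difference of -1.13 ± 0.21 (adjusted p = 0.000101) that was -0.88 and not called without serum replicate 2. Of the partners, the parathyroid hormone receptor Pth1r was higher in v1 by 2.99, with means of 34.9 in serum and 282.3 in v1. Kl was lower by 1.57 and Kcnj16 by 1.47, and 3 of 7 transcription factors were lower, led by Prox1 (-1.88) and Sall3 (-1.51). The 2 macula densa markers, Nos1 and Ptgs2, summed to 35.0 and 48.8 in serum and 6.76 and 8.98 in v1, and thick ascending limb markers to 48.7 and 28.5 against 23.7 and 14.8, and their part was not tested. The kidney stage with the highest Nos1 and Ptgs2 sums was P9, at 16.7 and 23.6. The larger sum in serum is therefore not read as macula densa cells alone.

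The late v0 explants were 2 days younger than the v1 explants set beside them, so day and medium cannot be told apart. In D19 v1 explants, 2 of 10 genes were higher than in D17 v0 explants, against 2.63% of all genes. Slc12a3 was 0.478 and 0.283 in v0 and 1.55 and 2.33 in v1 (1.10 ± 0.18, adjusted p = 5.8e-05), and Klk1 was at the lowest value in v0 and 1.05 and 2.02 in v1 (1.27 ± 0.28, at least 10.2-fold, adjusted p = 0.0012). Neither gene overlapped between the groups. Without v1 replicate 2 the count was 0, with Slc12a3 at 0.91 and Klk1 at 0.99, and without v0 replicate 2 it was 1. Calb1 was low in both, at 27.7 and 16.5 in v0 and 41.8 and 31.8 in v1.

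Between v2 and v1 explants at D19 the 1 gene of 10 called was Calb1, against 1.13% of all genes called higher. Calb1 was 150.2 and 132.5 in v2 and 41.8 and 31.8 in v1, higher by 1.92 ± 0.22 (adjusted p = 3.92e-06) with a wide gap between the groups. Slc12a3 was 4.45 and 4.51 in v2 and 1.55 and 2.33 in v1, a difference of 0.92 ± 0.18 (adjusted p = 0.00115) just under the fold threshold, and without v1 replicate 2 the count was 2. In the calcium list 3 of 7 partners were lower in v2, against 1.71% of all genes, namely Kl (-1.94), Pth1r (-1.47) and Vdr (-1.12). Principal cell markers (Aqp2, Aqp3, Avpr2, Scnn1b, Scnn1g) summed to 411.7 and 437.0 in v2 and 167.1 and 165.4 in v1, while ureteric bud markers overlapped at 341.2 to 465.8 and 350.7 to 357.3. The part of either in the Calb1 difference was not tested.

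Assembloids and explants could be set side by side in the same medium at D19. Slc12a3 was 10.9 to 15.3 in the 4 assembloid libraries and 4.45 and 4.51 in the v2 explants, higher by 1.33 ± 0.16 (adjusted p = 3.66e-07) with no overlap, and was the 1 gene of 10 called, against 2.15% of all genes called higher. Trpm6 was 4.70 to 7.52 in assembloids and 2.73 in both explant libraries, a difference of 0.87 ± 0.19 (adjusted p = 0.00114) below the fold. Slc8a1 was 68.1 to 92.8 against 60.7 and 62.1, a difference of 0.46 with an interval from 0.21 to 0.71. In limma, 0 of the 35 partner genes in the 4 lists were called in this comparison, where 2.15% of all genes were called higher and 3.29% lower, and at an unadjusted p under 0.05 the counts were 10 higher and 1 lower. Thick ascending limb markers summed to 89.7 to 150.1 in assembloids and 73.5 and 108.3 in explants, which overlapped.

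The latest cultures were then set against the newborn kidney, which asks how near they come to it. The comparisons share the P0 libraries. In D19 v2 explants 6 of 10 genes were lower than at P0, against 9.03% of all genes. In D19 assembloids 5 were lower, against 6.76% of all genes. In limma, 0 of the 10 were higher in either, against 7.16% and 5.68% of all genes, and at an unadjusted p under 0.05 that count was also 0. Equal totals moved the median of all genes to -0.11 in the first comparison and left its 6 calls.

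The genes furthest below P0 were Slc12a3, Trpv5, Klk1 and Pvalb. Slc12a3 was 153.3 and 106.9 at P0, 4.45 and 4.51 in v2 explants and 10.9 to 15.3 in assembloids, a change of -4.57 ± 0.18 (adjusted p = 3.98e-17) and of -3.23 ± 0.16 (adjusted p = 1.94e-15). The ratio of the assembloid mean to the newborn mean was 0.0991, and the E15.5 kidney, at 9.87 and 11.1, overlapped the r1 set. Trpv5 was 12.1 and 8.58 at P0, 0.315 and 0.119 in v2 explants and 0.112 to 0.671 in assembloids, lower by 3.25 ± 0.21 and 3.09 ± 0.18 on the log2 scale. Pvalb was 4.25 and 4.26 at P0 and at the lowest value in all 6 cultured libraries, which is at least 18.4-fold lower in v2 explants and at least 25.4-fold lower in assembloids. For Klk1, with 25.1 and 22.7 at P0, the changes were -2.71 ± 0.28 in v2 explants, at 3.22 and 2.50, and -3.44 ± 0.24 in assembloids, at 0.288 to 4.03.

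The regulators split. Klhl3 was 39.5 and 30.8 at P0, 13.04 and 12.95 in v2 explants and 13.9 to 17.9 in assembloids, lower by 1.36 ± 0.17 (adjusted p = 1.25e-07) and 1.12 ± 0.14 (adjusted p = 3.17e-07). Without P0 replicate 1 the assembloid value was -0.94 and not called. Wnk4 was 83.6 and 95.8 at P0, 109.3 and 78.4 in v2 explants and 89.7 to 107.8 in assembloids, overlapping throughout. Its changes were 0.05, with an interval from -0.20 to 0.30, and 0.11, with an interval from -0.11 to 0.32. Wnk1 was 293.9 and 215.8 at P0, 314.2 and 252.5 in v2 explants and 235.5 to 278.4 in assembloids, with intervals from -0.12 to 0.44 and from -0.26 to 0.23.

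Among the calcium and magnesium genes, Calb1 was 135.6 and 117.8 at P0, 150.2 and 132.5 in v2 explants and 95.9 to 142.1 in assembloids. The groups overlapped, and the intervals of the change ran from -0.30 to 0.61 and from -0.53 to 0.26. Trpm6 was 5.75 and 3.72 at P0, and the 4.70 to 7.52 of assembloids overlapped it (0.27, interval -0.12 to 0.66), while the v2 explants at 2.73 lay below it (-0.60, interval -1.05 to -0.15) and were not called. Slc8a1 was 152.7 and 108.3 at P0 and 60.7 and 62.1 in v2 explants, lower by 1.06 ± 0.14 (adjusted p = 4.96e-07), and -0.81 without P0 replicate 1, which was not called. In assembloids it was 68.1 to 92.8, a change of -0.60 ± 0.12 under the fold. Smooth muscle markers, for another tissue that uses the exchanger, summed to 292.1 and 306.1 at P0 and to 487.7 to 640.4 in the D19 v2 explants and assembloids, and their part was not tested.

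**Figure D5:**
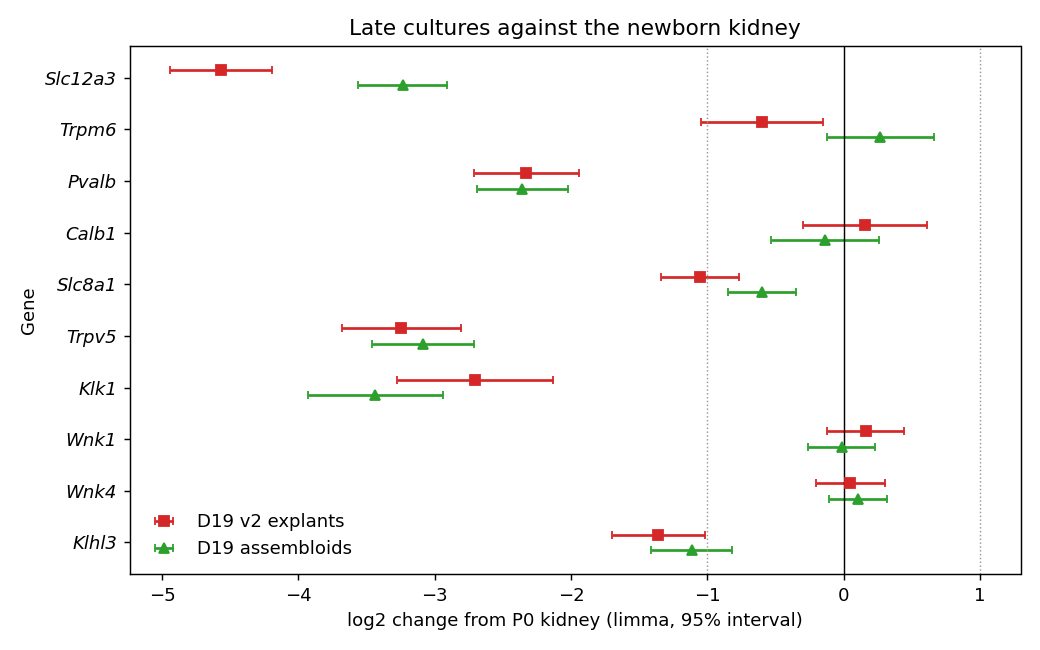
Log2 change from the P0 kidney (horizontal axis, limma estimate with 95% interval) of each gene in D19 v2 explants (squares) and D19 assembloids (triangles), with dotted lines at the fold threshold. Slc12a3, Trpv5, Klk1 and Pvalb lie between -4.57 and -2.33, and the intervals of Calb1, Wnk1 and Wnk4 include 0.

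Some of the partner genes were lower than at P0, and most were not called. In v2 explants this held for 4 of 13 salt, 3 of 7 calcium and 4 of 8 magnesium partners and 4 of 7 transcription factors, against 9.03% of all genes, and in assembloids for 3, 3, 3 and 4, against 6.76%. The largest differences were in Kl, with a mean of 199.0 at P0, 2.94 in v2 explants and 5.36 in assembloids (-5.66 ± 0.23 and -4.96 ± 0.20). S100g differed by -3.80 and -3.44, Bsnd by -3.14 and -2.58, and Emx1 by -3.36 and -2.60. The 5 thick ascending limb markers summed to 585.0 and 791.9 at P0 and 73.5 to 150.1 in these cultures. The 4 intercalated cell markers (Atp6v1b1, Foxi1, Slc4a1, Slc26a4) summed to 103.4 and 110.2 at P0, 9.27 and 18.6 in v2 explants and 31.2 to 60.5 in assembloids. They also summed to 38.3 and 42.9 at E12.5, with Atp6v1b1 at or under 3 times the lowest value. Their sum is therefore not read as intercalated cell content alone, and the part of blood in it was not tested. The part of segment size in the distal tubule values was not tested.

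Across all 17 groups, the order of Slc12a3 means was P45, P9, P0, assembloids D19 r2 and r1, E15.5, D19 v2 explants, D7 serum explants and D19 v1 explants, at 1556, 843.9, 130.1, 14.8, 11.0, 10.5, 4.48, 4.32 and 1.94. The other 8 groups had means under 1. Neighbours in that order overlapped for the r1 assembloids and E15.5, and the D19 v2 and D7 serum explants differed by little more than their spread. The group means of Slc12a3 followed those of Klk1 (Pearson r = 0.95), Trpv5 (0.94) and Klhl3 (0.93) more closely than Calb1 (0.44). These correlations describe 17 groups that share kidney stages and culture days.

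Among 12776 other genes, those whose 17 group means were most like Slc12a3 were Vstm5 (r = 0.989), Car15 (0.976) and Slc9a3 (0.974), the last an apical sodium-proton exchanger. For Trpv5 they were Cldn16 (0.985), a tight junction gene of the thick ascending limb, Abca13 (0.971) and Prdm16os (0.971). For Pvalb they were Hmx2 (0.99), Clec2h (0.989) and Slc22a29 (0.988). By rank these were less alike, with Spearman rho of 0.456, 0.718 and 0.424, and Pvalb was at or near its lowest value outside the P0, P9 and P45 kidneys, so its r rests on those 3 groups. For Klk1 they were Mogat1 (0.987), Tmigd1 (0.985) and Slc26a4 (0.983), the chloride-bicarbonate exchanger of intercalated cells. By r, Calb1 had no like gene as close, with Sccpdh (0.812), Ankrd9 (0.796) and Gcat (0.792) at the head of its list. Their Spearman rho was 0.591, 0.681 and 0.625, which is not below all of those given for Pvalb. In the order named, rho was 0.99, 0.801 and 0.922 for Slc12a3, 0.897, 0.853 and 0.713 for Trpv5, and 0.745, 0.821 and 0.904 for Klk1. Klk1 was also at the lowest value at E12.5 and in several culture groups.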

How the data were processed

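Bulk RNA-seq of 34 mouse samples in 17 groups of 2 was used. The deposited table holds signal that the authors normalized with TMM, per its file name and columns, without whole counts. Per the submitters' processing notes, STAR 2.7.8a and Partek and the builds mm39 and mm10 were used, while the remaining steps are not stated there. Between 88.9% and 94.5% of low values (up to 20 counting steps) were whole multiples of a library's lowest value within 0.1 step, so reads were not recovered and no count test was run. Groups came from the sample labels.

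Values were tested as log2(value + 0.962) with limma 3.58.1 in R 4.3.3 (17 group means, 17 residual degrees of freedom, trend and robust settings), with p-values adjusted over 19264 genes. The 16 comparisons, the 10 genes, the partner and marker lists were chosen with earlier results of these data known. Partner genes were named as up to 3 called genes with the largest change per list and comparison, or where a text comparison follows such a gene across conditions. In the salt list 1 gene is not reported here. Likeness used genes whose highest group mean was at least 10 times the pseudocount. The fit was tested on simulated data with changes placed only in genes whose mean was over 10 times the pseudocount. That test did not cover genes near the lowest value. Alternatives were other pseudocounts, scalings, no filter, another variance model, a replicate block and leaving out each library. Promoters came from RefSeq on GRCm38.p6. Protein sequences were not used here.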

Additional observations from a re-analysis of the deposited data

Results flagged for a closer look

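The rise of Slc12a3 from D3 to D19 was larger in assembloids than in v1 explants by 2.45 on the log2 scale (SE 0.24, limma adjusted p = 2.6e-08), which is a difference between groups under the same contrast. The change was 3.76 in assembloids and 1.31 in v1 explants, and every D19 library was above every D3 library in both. Assembloids began lower, at the lowest value, and ended higher, at 10.9 to 15.3 against 1.55 and 2.33.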

How the results depend on the processing

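The 16 counts of called genes were recomputed under each alternative. Of 357 values of the 51 called changes under other settings, 333 were still called in the same direction, 24 were not and 0 reversed. Dropping the filter, the other variance model and the replicate block leave each log2 change as it was, so their calls could hardly differ. Most of the 24 losses came with the larger pseudocount, and the pooled count does not measure how firm the calls are. Among 234 values with 1 library left out, 217 were still called and 17 were not. Direction and call of Slc12a3 in every kidney step up to P9, in both comparisons of D19 assembloids over time and against P0 held under each alternative run.

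A pseudocount 5 times as large lowered most counts, since it shrinks changes of low genes. They became 1 at E15.5 (from 3), 3 at P0 (from 5), 1 for v1 explants from D3 (from 4), 2 and 1 for assembloids from D3 and D13 (from 4 and 2), and 3 for assembloids against P0 (from 5). They became 0 for D7 v1 against serum, D19 v1 against v0, D19 assembloids against v2 explants, and r2 against r1. With a pseudocount 0.1 times as large the counts were 3 for D19 v1 explants against D13 (from 1), 4 for D7 v1 against serum (from 2), 2 for v2 against v1 explants (from 1), 3 for assembloids against v2 explants (from 1) and 0 for r2 against r1 (from 1). Equal totals gave 1 at P45 (from 3).

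With 1 library left out at a time, the count ran from 2 to 5 at P45, from 1 to 3 for D19 v1 explants against D13, from 1 to 2 for D19 assembloids against D13, from 0 to 3 for D19 v1 against v0 explants, from 1 to 2 for v2 against v1 explants, and from 0 to 1 for r2 against r1. In the other 10 comparisons it stayed within 1.5 times the main count. The cause of these shifts was not tested.

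Replicate numbers showed no pairing over the groups as a whole. Over 136 pairs of groups, the differences between replicates 1 and 2 correlated at -0.21 to 0.21 (median 0.01), with 11 pairs over 0.1. A median cannot exclude pairing of particular groups. With a replicate block, which leaves each log2 change as it was, every count was the same, from 1 to 10 genes. Low genes are limited by depth, most of all in replicate 2 of the D19 v2 explants.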
